A study of Mus musculus with 24 samples.

Results

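The C127 line was derived from mouse mammary epithelium, and its H3K4me3 (trimethylation of lysine 4 of histone H3) was profiled by ChIP-seq. The narrow H3K4me3 peaks at the start sites of protein-coding genes are described here. Members were chosen by their measured width and position, and a peak was taken as narrow when it was under 1200 bp wide and came within 250 bp of a transcription start site (TSS) of a protein-coding gene. This rule found 442 narrow peaks among the 9704 peaks at a coding TSS on the 19 autosomes and X, a background of 4.55%, and the other 9262 are called wider peaks. The complete list held 13451 peaks, of which 13447 lay on these 20 chromosomes. The H3K4me3 ChIP had 3 replicates of C127 cells without a transgene or treatment, grown in DMEM with fetal bovine serum and crosslinked with formaldehyde, and 1 matched input. The series held 24 samples in 12 groups, and the 21 samples other than the H3K4me3 replicates (endogenous CFP1, KDM2B and RNA polymerase II, GFP and GFP-CFP1 with its CXXC, PHD, combined and SID mutants, and inputs) were not analysed here. Because the deposited list gives 1 consensus interval per peak, with no height and no value per replicate, read depth is unknown and no value below has a spread between replicates.

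H3K4me3 is deposited around the starts of active genes by SET1 and MLL methyltransferases. CpG islands are stretches rich in the dinucleotide CpG that mostly escape DNA methylation and surround most mammalian promoters, and CFP1, the SET1 subunit that the study examined, binds non-methylated CpGs through its CXXC domain and H3K4me3 through its PHD finger. The nucleosomes next to a start site, chiefly those on the transcribed side, carry most of the mark, so that a peak usually spreads further into the gene than away from it. The study asked how CFP1 finds such chromatin. The comparison made here is between the promoters under narrow peaks and those under wider ones, in their CpG content, the place of the TSS within the peak, their neighbours and the functions of their genes.

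The cell line was checked against marker genes. Of 20 luminal mammary markers, 5 had a TSS peak (Areg, Cd24a, Esr1, Gata3 and Muc1), while the defining epithelial genes Epcam, Cdh1, Krt8 and Krt18 had none. Of 14 basal and myoepithelial markers, 2 had a TSS peak (Cav1 and Itga6), and Krt5, Krt14 and Trp63 had none. Of 21 fibroblast and mesenchymal markers, 13 had a TSS peak, among them Vim, Fn1, Twist1 and Zeb1. The others, Col1a1, Col3a1, Dcn, Lum, Postn, Prrx1, Tgfbi and Thy1, had none. No marker of these lists had a narrow peak, and the place of the cells on the path between epithelial and mesenchymal states was not tested.

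The narrow peaks were 233 to 1199 bp wide, with a median of 870.5 bp and quartiles of 677.25 and 1068.5 bp, against a median of 3201 bp for the wider ones. These widths chose the members and are given as a description. The limit of 1200 bp falls on a rising slope of the distribution with no gap there. The peaks just inside it lay at Pja1 (1199 bp), a ubiquitin ligase gene, Cfap300 (1198 bp), which encodes a protein of motile cilia, and Lrmda (1197 bp). Those just outside lay at Ndrg4 (1200 bp), Fbxl21 (1205 bp) and Cldn9 (1206 bp). Of the members, 429 reached 1 coding gene and 13 reached 2, which gave 451 genes, or 4.2% of the 10747 coding genes with a TSS peak.

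**Figure D1:**
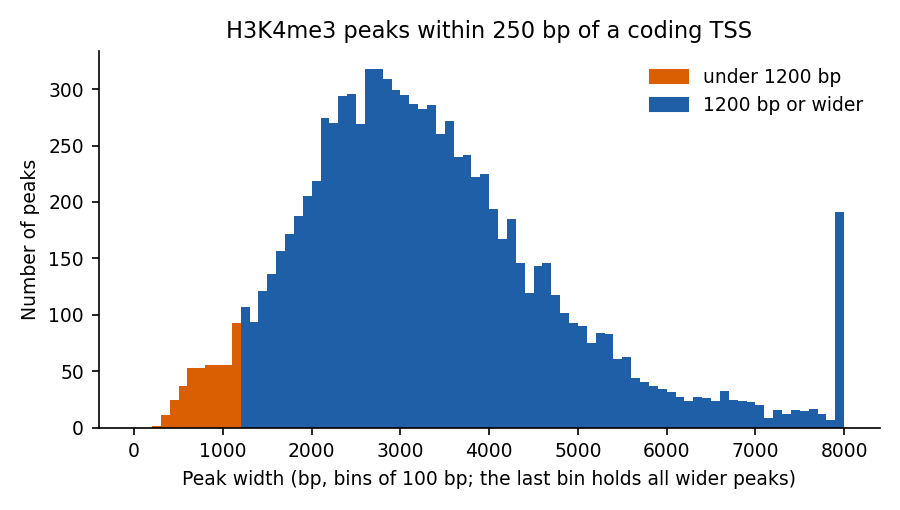
Number of H3K4me3 peaks at a coding TSS by peak width in bp, in bins of 100 bp, with all wider peaks in the last bin. The 442 narrow peaks (orange) form the lower shoulder of 1 continuous distribution whose wider part (blue, 9262 peaks) has a median of 3201 bp.

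The promoters of narrow peaks spanned the whole range from CpG-dense to CpG-poor sequence. The sequences of the 6 members with the most CpGs within 250 bp of the TSS and of 4 of those with the fewest are shown because the contrast between them is the base composition that the results below turn on. Each runs from 100 bases before to 30 bases after the TSS, which begins at base 101, on the strand of the gene in mm10, with every CpG in capitals. The CpG-dense promoters belonged to Jmjd1c (a JmjC-domain protein; chr10:67127158-67127287), Tmem117 (chr15:94629150-94629279), Apba1 (an adaptor that binds the amyloid precursor protein; chr19:23758787-23758916), Gnaz (a G protein alpha subunit; chr10:74967077-74967206), Pdpr (a regulatory subunit of pyruvate dehydrogenase phosphatase; chr8:111094541-111094670) and Asap2 (an Arf GTPase-activating protein; chr12:21111648-21111777), all on the plus strand.
Jmjd1c: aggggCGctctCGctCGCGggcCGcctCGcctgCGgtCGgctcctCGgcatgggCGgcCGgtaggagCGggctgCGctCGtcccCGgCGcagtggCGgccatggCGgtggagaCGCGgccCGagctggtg
Tmem117: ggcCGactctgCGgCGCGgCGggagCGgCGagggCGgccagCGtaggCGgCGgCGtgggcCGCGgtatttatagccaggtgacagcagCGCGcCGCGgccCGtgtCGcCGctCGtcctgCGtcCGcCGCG
Apba1: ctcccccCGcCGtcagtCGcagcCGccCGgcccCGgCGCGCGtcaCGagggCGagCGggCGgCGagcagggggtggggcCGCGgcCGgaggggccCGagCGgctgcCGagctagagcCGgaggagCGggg
Gnaz: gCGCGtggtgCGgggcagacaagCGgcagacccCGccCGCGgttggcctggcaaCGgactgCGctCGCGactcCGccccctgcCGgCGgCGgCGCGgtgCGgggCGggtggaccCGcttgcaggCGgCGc
Pdpr: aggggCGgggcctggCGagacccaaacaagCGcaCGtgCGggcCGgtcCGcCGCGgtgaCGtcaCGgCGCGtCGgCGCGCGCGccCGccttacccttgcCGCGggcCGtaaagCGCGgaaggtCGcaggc
Asap2: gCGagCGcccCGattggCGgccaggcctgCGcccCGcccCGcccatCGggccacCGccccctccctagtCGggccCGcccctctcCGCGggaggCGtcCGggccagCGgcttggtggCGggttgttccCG
These 6 promoters had 82, 82, 79, 76, 75 and 73 CpGs within 250 bp of the TSS, and the stretches shown hold 18 to 26 of them. Their peaks were nonetheless 681 to 1161 bp wide, and each had a CpG island at the TSS, of 836 bp (Tmem117) to 1602 bp (Apba1). The promoters with the fewest CpGs included those of Sra1 (2 CpGs, sequence not shown), Lipe, Ifi27l2a, Ugt1a6a and Cyp4f16. Lipe encodes hormone-sensitive lipase (chr7:25390077-25390206, minus strand), Ifi27l2a an interferon-induced protein (chr12:103443651-103443780, minus strand), Ugt1a6a a glucuronosyltransferase (chr1:88134709-88134838, plus strand) and Cyp4f16 a cytochrome P450 (chr17:32536458-32536587, plus strand).
Lipe: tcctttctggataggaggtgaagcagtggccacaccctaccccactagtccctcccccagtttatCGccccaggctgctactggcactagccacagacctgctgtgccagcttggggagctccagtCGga
Ifi27l2a: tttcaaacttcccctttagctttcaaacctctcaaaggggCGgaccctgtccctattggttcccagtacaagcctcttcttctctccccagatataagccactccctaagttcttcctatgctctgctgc
Ugt1a6a: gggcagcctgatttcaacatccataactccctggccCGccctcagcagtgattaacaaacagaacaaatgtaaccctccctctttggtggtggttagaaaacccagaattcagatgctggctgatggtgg
Cyp4f16: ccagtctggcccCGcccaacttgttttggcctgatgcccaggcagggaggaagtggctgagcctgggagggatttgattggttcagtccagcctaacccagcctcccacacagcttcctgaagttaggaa
These 4 had 2, 3, 4 and 4 CpGs within 250 bp of the TSS, in the order shown, no CpG island there, and peaks of 357 to 775 bp. In Ugt1a6a the TSS lay 83 bp outside its peak, and 45.1% of the 50-bp words around it recurred at another coding promoter.

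Narrow peaks lay on promoters with fewer CpGs than wider ones. The median CpG count within 250 bp of the TSS was 27 (quartiles 13.25 and 38) at narrow peaks and 41 (quartiles 31 and 53) at wider ones, a difference of -14 (SD over chromosomes 5.92, n = 20 chromosomes), with fewer at narrow peaks on each chromosome (two-sided permutation of signs over the chromosomes, adjusted permutation p = 2.875e-05, from the smallest raw p that the permutations can give). All adjusted p-values below come from this test and are adjusted over 23 measures, or over the measures that remain where a class of promoters is left out. They treat chromosomes as units and say nothing of the spread between replicates. Each difference printed is that of the pooled medians or shares, while the SD and p belong to the differences per chromosome. For the CpG count the latter had a mean of -15.2. The observed over expected CpG ratio had a median of 0.641 against 0.821 (difference -0.18, SD 0.0789) and GC content a median of 58.4% against 64.1% (difference -5.69 percentage points, SD 2.36), both lower on all 20 chromosomes with the same adjusted p. Members with under 10 CpGs numbered 62 (14.0%, against 2.96% of wider peaks) and those with 40 or more numbered 93 of 442 (against 54.8% of wider peaks). For all 21755 coding genes the median was 25 CpGs, and for those without a TSS peak it was 8. The median count at narrow peaks thus stood close to that of all coding genes, a pool of genes with and without a TSS peak.

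**Figure D2:**
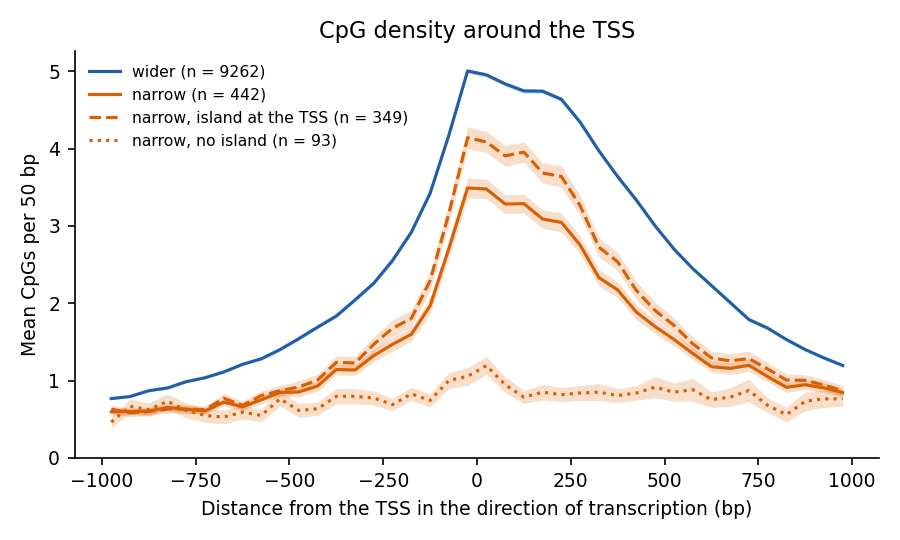
Mean number of CpGs per 50 bp against the distance from the TSS in bp, in the direction of transcription, for wider peaks (blue) and narrow peaks (orange, solid), the latter also split into those with and without a CpG island at the TSS (dashed and dotted; bands, standard error of the mean over promoters). Near the TSS the mean reached 5.00 CpGs per 50 bp at wider peaks, 3.49 at narrow ones, 4.14 at narrow ones with an island and 1.19 at those without.

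A CpG island, taken here as a stretch of 200 bp or longer whose GC fraction was 0.5 or higher and whose observed over expected ratio was 0.6 or higher, lay at the TSS of 349 of 442 narrow peaks (79.0%, 95% Wilson interval 74.9 to 82.5, counting error only) and of 8944 wider ones (96.6%). The difference of -17.6 percentage points (SD 8.40) was negative on 19 of 20 chromosomes (adjusted permutation p = 2.875e-05). By a stricter definition (500 bp, GC fraction 0.55, ratio 0.65) the shares were 59.5% and 91.1%, a difference of -31.6 percentage points. Where an island was present, it was shorter under narrow peaks, with a median of 666 bp against 1014 bp (difference -348 bp, SD 88.2, lower on 20 of 20 chromosomes, adjusted permutation p = 2.875e-05). Against wider peaks of 1200 to 2400 bp alone the difference was -150 bp. Most narrow peaks therefore had an island at the TSS, with a median length below that at wider peaks. The island was longer than the peak itself at 119 of the 349 (34.1%) and at 60 wider peaks (0.671%). The narrow peak covered the complete island in 29.5% of cases and wider peaks in 90.3%, values that share the width with the rule. At Epha4, an ephrin receptor gene, a peak of 1015 bp stood on an island of 2616 bp, and at Egfr, the epidermal growth factor receptor gene, a peak of 976 bp stood on one of 1275 bp.

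Among the narrow peaks, the CpG count showed no steady trend with width. The median was 27 CpGs in the 75 peaks under 600 bp, 24.5 in the 162 from 600 to 900 bp and 28 in the 205 from 900 to 1200 bp. Above the limit it was 35 in the 2237 peaks of 1200 to 2400 bp and 43 in the 7025 wider still. Against the peaks of 1200 to 2400 bp alone, narrow peaks still had 8 CpGs fewer (adjusted permutation p = 0.000115), and with island promoters alone they had 11 fewer (31 against 42, adjusted permutation p = 7.33333e-05).

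Of 7 short promoter words, 4 were rarer at narrow peaks. The words were searched from 150 bases before to 50 after the TSS on both strands, except the TATA box, and a match is not a bound site. The GC box word GGGCGG, the core that SP and KLF factors bind, stood at 48.0% of narrow peaks against 64.7% of wider ones and 41.7% of all coding promoters (difference -16.8 percentage points, SD 8.86, lower on 20 of 20 chromosomes, adjusted permutation p = 2.875e-05). The word of NRF1, a factor of mitochondrial and housekeeping genes, stood at 4.07% against 10.3% (5.36% of all coding promoters, adjusted permutation p = 0.000184). The word of ETS factors, CCGGAAG, stood at 10.6% against 16.8% (9.67% of all, adjusted permutation p = 0.00491), and AAGATGGCG, that of YY1, at 1.13% against 2.96% (1.57% of all, adjusted permutation p = 0.00648). All 4 hold a CpG and so are not separate from the CpG count. A limit of 1500 bp ended the call for YY1 (adjusted permutation p = 0.0677).

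The other 3 words did not differ past the threshold. CCAAT, bound by NF-Y, stood at 34.4% of narrow and 31.2% of wider peaks (29.9% of all coding promoters, difference 3.18 percentage points, SD 11.7, adjusted permutation p = 0.304). TGACGTCA, the cyclic AMP response element, which also holds a CpG, stood at 3.17% and 3.36% (2.24% of all, adjusted permutation p = 0.799). The TATA box word TATAAA, searched on the gene's strand from 45 to 20 bases before the TSS, stood at 8 narrow peaks (1.81%) and 0.831% of wider ones (2.57% of all, adjusted permutation p = 0.228). Its 8 members, named here after their values were seen, were Cxcr4, a chemokine receptor gene, Dgat2, which makes triglycerides, Gem, a small GTPase gene, Cavin4, Cabyr, Ncoa4, Tmem17 and Zfp273, all of them with an island at the TSS.

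The TSS lay inside the peak in 379 of 442 narrow peaks (85.7%, 95% Wilson interval 82.2 to 88.7) and in 99.1% of wider ones. This share is a description, since the rule used both the width and the distance to the TSS. In the 63 others the TSS was outside by a median of 84 bp and at most 245 bp, and the peak lay on the downstream side of it in 48 and on the upstream side in 15. The direction of the peak was then read in the 335 members with the TSS inside, 1 coding gene in reach and no TSS on the other strand within 2 kb. These peaks reached a median of 216 bp upstream (quartiles 121 and 370 bp) and 596 bp downstream (quartiles 410.5 and 803.5 bp), against 801 and 2180 bp in 6877 wider ones. Narrow peaks were thus smaller on both sides. The relative position of the TSS, with 0 at the upstream and 1 at the downstream edge, had nearly the same median, 0.258 at narrow and 0.267 at wider peaks.

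On this scale, which is divided by the width, individual narrow peaks were spread more widely around that median. In bp the order was reversed, with upstream quartiles of 121 and 370 bp at narrow and 478 and 1220 bp at wider peaks. The quartiles of relative position were 0.152 and 0.435 at narrow peaks and 0.177 and 0.363 at wider ones (SD over peaks 0.221 and 0.141). The downstream side was the longer in 268 of 335 (80%, 95% Wilson interval 75.4 to 83.9) against 93.3% of wider peaks. The TSS lay past 60% of the width in 44 narrow peaks (13.1%) against 2.69% of wider ones, and in the upstream 20% of the peak in 37.3% against 31.1%. These values are given without a test, since they come from the same peak edges as the width. At narrow peaks without an island the downstream side was the longer in 64.6% of 65, against 83.7% of the 270 with an island. At wider peaks these shares were 86.3% and 93.6%.

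**Figure D3:**
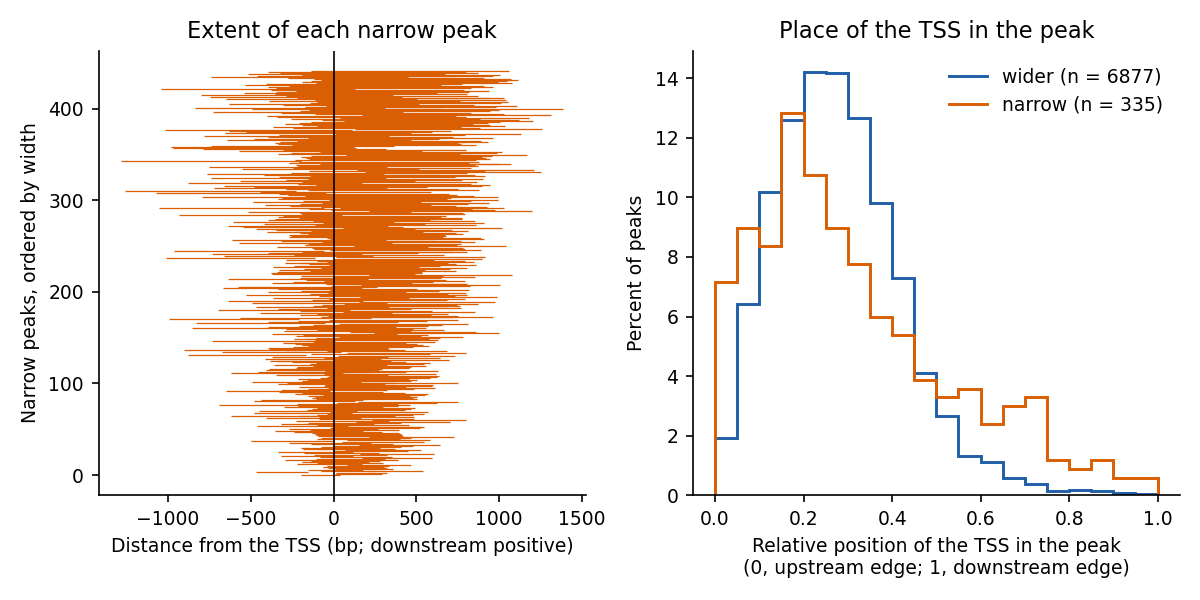
Left, extent of each of the 442 narrow peaks in bp around its TSS (downstream positive), ordered by width. Right, percent of peaks by relative position of the TSS (0, upstream edge; 1, downstream edge) for 335 narrow (orange) and 6877 wider (blue) peaks, where the narrow ones have more of their TSSs near both edges, including 13.1% past 0.6 against 2.69%.

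At the upstream edge the TSS was 3 bp inside the peak in Nsfl1c, which encodes a cofactor of the VCP segregase, 2 bp in Vwa1, 15 bp in Lage3 and 9 bp in Edaradd, an adaptor of ectodysplasin signalling. Nearly the complete peak then lay in the gene. The reverse was seen in Rtl8a, a gene derived from a retrotransposon, whose TSS was the last base of a 498-bp peak on X, and in Pdpr, where 733 of 742 bp lay upstream and 8 bp downstream. In Pdpr another peak of 1608 bp began 432 bp further downstream. Igtp and Irgm2, which encode interferon-induced GTPases, shared a peak of 986 bp with 936 bp upstream of the Igtp TSS and 49 bp downstream, followed 319 bp downstream by a peak of 942 bp. Rapgef4 (0.936) and Apol10b (0.913) had no peak that near, their nearest being 27186 and 132789 bp away. Of their 50-bp words, 41.8% in Rtl8a, 37.4% in Igtp and 26.4% in Apol10b recurred at another coding promoter, where reads without a unique position are lost, and the part of this in the position of the edges was not tested. In Pdpr no word recurred.

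Another peak within 5 kb was found for 73 narrow peaks (16.5%) and 14.2% of wider ones, a difference that did not pass the threshold (2.33 percentage points, SD 9.32, adjusted permutation p = 0.201). The neighbour was downstream in 34 and upstream in 39, and it was itself narrow in 26. In 23 members, counted after the values were seen, the gap was 600 bp or less, and the neighbour was downstream in 17 of them and 1200 bp or wider in 8. The authors merged peaks within 250 bp of each other, and the smallest gap at a member was 251 bp, so that 1 enriched region with a dip can stand in the list as several peaks. Igfbp7, which encodes a secreted binding protein of insulin-like growth factors, had a peak of 982 bp and another of 517 bp, 465 bp downstream. At Dnah6, an axonemal dynein gene, the 727-bp peak followed a 321-bp peak at 266 bp. At Hoxc6 a peak of 728 bp stood 2181 bp from one of 10345 bp, and at Hoxa5 a peak of 1124 bp stood 2454 bp from one of 7804 bp.

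Narrow peaks lay more often at a gene that had another, separate TSS peak. This held for 52 members (11.8%) against 5.52% of wider peaks (difference 6.25 percentage points, SD 5.62, higher on 17 of 20 chromosomes, adjusted permutation p = 0.000153). With TSSs within 1000 bp the shares were 19.2% and 6.43%, a difference of 12.8 percentage points. Among island promoters alone the difference was 3.35 percentage points and did not pass (adjusted permutation p = 0.0598). The widest other peak of the gene was wider than 1200 bp in 44 of the 52, with a median over all of 3192.5 bp. These 52 had a median of 13.5 CpGs within 250 bp of the TSS, and 23 of them had no island, against 28 CpGs and 70 of 390 in the other members. A coding TSS in reach of the peak belonged to an APPRIS principal transcript, the main protein isoform in the annotation, at 91.0% of narrow and 96.9% of wider peaks (difference -5.98 percentage points, SD 6.51, adjusted permutation p = 0.000439). A wider peak can reach more TSSs and can take in several starts of its gene. Neither this share nor that of genes with another TSS peak is therefore free of the width that the rule used.

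The genes with the widest other peak were H2-DMa, which loads peptides on MHC class II (514 bp beside 12060 bp elsewhere), Hdac7, a class IIa histone deacetylase gene (684 and 9153 bp), Itgb5, the integrin beta 5 gene (1189 and 9109 bp), Unkl (992 and 7993 bp), Slc29a1, a nucleoside transporter gene (684 and 7088 bp), and Ptpre, a receptor tyrosine phosphatase gene (651 and 6732 bp). The narrow peaks of Hdac7, Itgb5, Unkl and Ptpre lay at starts with no principal transcript and had 6, 9, 29 and 12 CpGs within 250 bp. Those of H2-DMa and Slc29a1 had a principal start in reach and 21 and 25 CpGs. Lipe, among the promoters with the fewest CpGs, also belonged here, with a second peak of 3589 bp that lay 1979 bp upstream.

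Start sites on the other strand were less frequent near the TSSs of narrow peaks. They were counted by distance alone, in either orientation, and included those of long non-coding RNA genes. A TSS on the other strand lay within 2 kb of 47 members (10.6%) and 23.5% of wider peaks (difference -12.8 percentage points, SD 7.78, lower on 19 of 20 chromosomes, adjusted permutation p = 2.875e-05). Part of this goes with width above the limit, since against peaks of 1200 to 2400 bp the difference was -3.72 percentage points (10.6% against 14.3%, adjusted permutation p = 0.107). With a single coding TSS position in reach it was -3.95 percentage points (adjusted permutation p = 0.0987). The structure of the genes differed less. The length of the first exon (median 191.5 against 218 bp, adjusted permutation p = 0.155), gene length (median 22241.5 against 26361 bp, SD of the difference over chromosomes 10205 bp, adjusted permutation p = 0.549) and the share of single-exon genes (2.26% against 1.45%, adjusted permutation p = 0.191) did not pass the threshold.

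**Figure D4:**
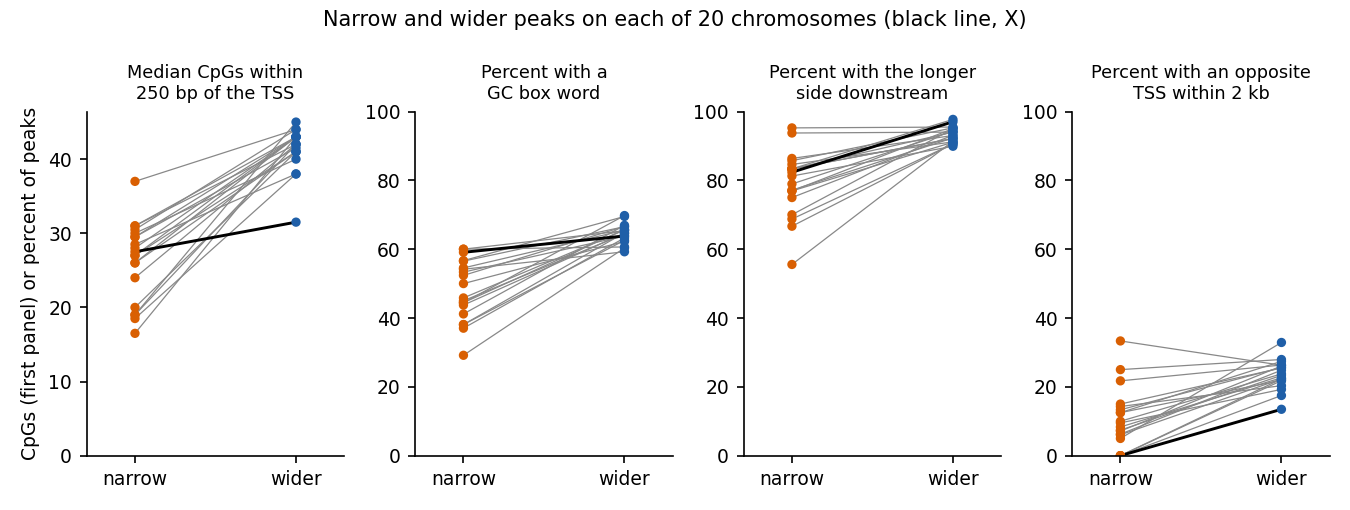
Values of narrow (orange) and wider (blue) peaks on each of 20 chromosomes, joined by lines (black, X): median CpGs within 250 bp of the TSS, and percent with a GC box word, with the longer side downstream and with a TSS on the other strand within 2 kb. The CpG count and the GC box share fell from wider to narrow peaks on every chromosome and the opposite-strand share on 19 of 20, and the panel on the downstream side is a description.

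Some of the narrowest peaks lay at promoters whose sequence recurs elsewhere. The 10 narrowest were at Slc6a21 (233 bp), an SLC6 transporter gene, Bcl11a (289 bp), a zinc finger repressor gene, Abhd18 (308 bp), Mfsd8 (315 bp, shared with another start of Abhd18), Rsph3a (327 bp), a radial spoke gene of cilia, Akna (329 bp), Hist1h2ab (335 bp), a histone H2A gene, Zfp983 (352 bp), Cyp4f16 (357 bp) and Adam5 (370 bp). Reads without a unique position were discarded by the authors, and recurrence of the promoter was therefore measured as the percent of its 50-bp words found at another coding promoter. It was 47.3% in Abhd18, 56.0% in Mfsd8, 30.8% in Rsph3a, 22.0% in Hist1h2ab, 13.2% in Cyp4f16 and 0 in the other 5. A recurrence of 10% or more, a limit set after the values were seen, was found in 25 narrow (5.66%) and 49 wider peaks (0.529%). Over 50% it was found in 2 narrow peaks (Mfsd8 and Zfp943) and 4 wider ones (difference 0.409 percentage points, SD 1.32, adjusted permutation p = 0.549). Whether lost reads shortened these peaks was not tested. The repeat-masked share around the TSS had a median of 4.79% in both classes (adjusted permutation p = 0.154).

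The functions of the genes were described with 32 lists of gene names. A gene was counted as narrow when its widest TSS peak was under 1200 bp, which held for 406 of 10747 coding genes with a TSS peak, a background of 3.78%, while 45 of the 451 genes reached also had a wider one. Of the 451 genes, 187 stood in a list. The lists are set beside the background as counts with 95% Wilson intervals, which cover counting error only, and no list was tested. The highest shares among lists with over 100 marked genes were those of immune genes, zinc finger genes and genes of cilia, and the lists of cytosolic ribosomal, respiratory and cell cycle genes held no narrow gene.

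**Figure D5:**
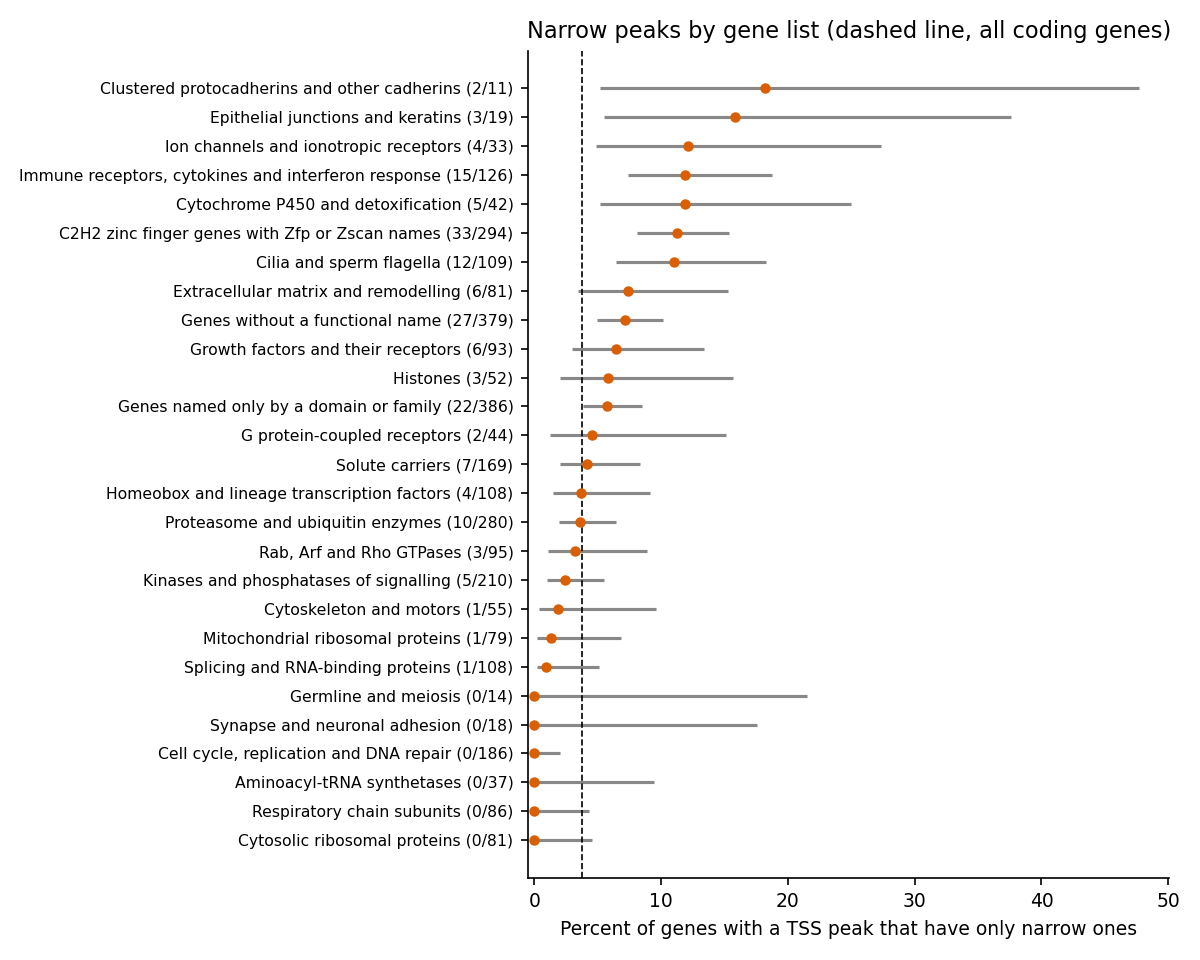
Percent of the genes with a TSS peak in each list that had only narrow ones (points; bars, 95% Wilson intervals), with the counts in brackets and the value for all coding genes, 3.78%, as a dashed line. Zinc finger, immune and cilia lists lie between 10 and 12%, and 6 lists lie at 0; the marker lists and the olfactory list, with under 11 marked genes except the mesenchymal one, are not drawn.

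Among C2H2 zinc finger genes with Zfp or Zscan names, most of which encode DNA-binding repressors that often carry a KRAB domain, 33 of 294 were narrow (11.2%, interval 8.10 to 15.3), with a median width of 2541 bp over the 294 against 3254 bp for all genes. The narrowest were Zfp983 (352 bp), Zfp85 (383 bp), Zfp458 (454 bp), Zfp120 (592 bp) and Zfp2 (613 bp). The make-up of these promoters is given without a test. The 33 had a median of 17 CpGs (quartiles 13 and 24) where the other 409 members had 28 and wider peaks at Zfp genes had 32. An island lay at 29 of the 33 but had a median of only 438 bp, and 11 (33.3%) had one by the stricter definition of 500 bp, against 61.6% of the other members. The GC box word stood at 5 of them (15.2%, against 50.6% of the other members) and the ETS word at 10 (30.3%, against 9.05%). At wider peaks the same words also differed between Zfp and other genes, with the GC box word at 42.8% against 65.4% and the ETS word at 20.5% against 16.7%. With a limit of 1500 bp the narrow share of the list was 19.05%, and that of all genes, given below, also rose. Zfp85 and Zfp493 lay 24043 bp apart and each was the nearest peak of the other, so that neighbours of 1 cluster are not independent. In genes named after their values were seen, recurring words reached 14.3% at Zfp975, 12.1% at Zfp874a and 58.2% at Zfp943, and were 0 at the 5 narrowest.

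Immune receptors, cytokines and interferon-response genes had a TSS peak in 126 of 517 cases, of which 15 were narrow (11.9%, interval 7.35 to 18.7). The narrowest were Csf2rb (566 bp), the common beta chain of interleukin and GM-CSF receptors, H2-T22 (604 bp), a non-classical MHC gene, Irf9 (658 bp), a subunit of the interferon-activated factor ISGF3, and the decoy receptor genes Tnfrsf23 (670 bp) and Tnfrsf22 (690 bp), which neighbour each other 35462 bp apart. At Csf2rb, H2-T22 and Irf9 there was no island, 8 to 13 CpGs and a TSS 90 to 137 bp outside the peak. Tnfrsf23 and Tnfrsf22 had 20 and 23 CpGs and islands of 637 and 233 bp. Further down the list, named after their values were seen, stood Cxcl10 (691 bp), Ifi27l2a (716 bp), Ifi47 (808 bp), Oasl2 (1154 bp), the chemokine receptor gene Cxcr4 (1137 bp) and, with the most CpGs in the list, Il13ra1 (1042 bp), H2-K1 (825 bp) and Il17rd (838 bp). Cxcl10, Ifi27l2a, Ifi47 and Oasl2 had 3 to 14 CpGs, Cxcr4 had 28, and Il13ra1, H2-K1 and Il17rd had 42, 39 and 32 with islands of 728, 1297 and 1162 bp.

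Genes of cilia and sperm flagella were narrow in 12 of 109 (interval 6.41 to 18.3%). They included Rsph3a (327 bp) and its copy Rsph3b (418 bp), the dynein gene Dnah6 (727 bp), Armc2 (728 bp) and Spata2l (809 bp). All 5 had an island at the TSS, of 396 bp at Dnah6 to 1145 bp at Rsph3b, and their CpG counts ran from 16 to 42. Words recurred at 30.8% in Rsph3a and at a lower share in Rsph3b, and the TSSs of Rsph3a and Dnah6 were 215 and 177 bp outside their peaks.

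Cytochrome P450 and detoxification genes were narrow in 5 of 42 (11.9%, interval 5.19 to 25.0). All 5 lacked an island. They were Cyp4f16 (357 bp, 4 CpGs), Ugt1a6a (775 bp, 4 CpGs), the glutathione transferase genes Gstm7 (780 bp, 12 CpGs) and Gstm2 (897 bp, 6 CpGs), and the aldo-keto reductase gene Akr1e1 (1128 bp, 11 CpGs). Ion channels were narrow in 4 of 33 (12.1%, interval 4.82 to 27.3), and 3 of these 4 promoters were CpG-dense. The purinergic receptor gene P2rx6 (751 bp) had 8 CpGs and no island, but the acid-sensing channel gene Asic1 (881 bp), the glycine receptor gene Glrb (890 bp) and the pacemaker channel gene Hcn2 (1090 bp) had 42, 62 and 60 CpGs, and Hcn2 lay on an island of 2116 bp.

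For growth factors, matrix genes and homeobox factors, the interval of the narrow share held the background of 3.78%. Growth factors and their receptors were narrow in 6 of 93 (6.45%), namely Pdgfrl (895 bp), the neurotrophin gene Ntf5 (917 bp), Egfr (976 bp), Igfbp7 (982 bp), Epha4 (1015 bp) and the semaphorin gene Sema3a (1191 bp). Their CpG counts ran from 15 at Pdgfrl to 59 at Igfbp7, and all had an island. Matrix genes were narrow in 6 of 81 (7.41%), namely Adam5 (370 bp), the syndecan gene Sdc2 (606 bp), the collagen gene Col5a3 (843 bp), Matn3 (931 bp), Adamts10 (952 bp) and the tenascin gene Tnc (1191 bp), with an island at all but Adam5. Homeobox and lineage factors were narrow in 4 of 108 (3.70%), Dlx4 (577 bp), Hoxc6 (728 bp), Hoxc5 (901 bp) and Hoxa5 (1124 bp). Those of the Hox clusters each had another peak within 5 kb.

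Junction genes were narrow in 3 of 19 (15.8%, interval 5.52 to 37.6), among them the connexin gene Gja4 (693 bp) and the claudin-like gene Cldn34c1 (1151 bp). With a limit of 1000 bp the share of junction genes fell to 5.26%, and that of all genes, given below, also fell and stayed lower. Clustered protocadherins and cadherins were narrow in 2 of 11 (18.2%, interval 5.14 to 47.7), Pcdha8 (374 bp) and Pcdhb15 (806 bp). Signalling kinases and phosphatases were narrow in 5 of 210 (2.38%), the phosphatase genes Ptpru (421 bp), Ptpn22 (482 bp), Ptpn6 (842 bp) and Dusp23 (897 bp) and the AMPK subunit gene Prkag3 (943 bp). Ptpn22 and Ptpn6, which act in blood cells, had 4 and 9 CpGs and no island, whereas Ptpru had 61 CpGs and an island of 2422 bp under its peak of 421 bp.

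Solute carriers were narrow in 7 of 169 (4.14%). They were Slc6a21 (233 bp), Slc6a12 (608 bp), the zinc transporter genes Slc39a8 (674 bp) and Slc39a3 (916 bp), Slc22a21 (813 bp), the urate transporter gene Slc2a9 (1118 bp) and Slc44a3 (1146 bp). All but Slc6a12 had an island. G protein-coupled receptors were narrow in 2 of 44, Gpr85 (579 bp) and Gprc5c (1152 bp), and the olfactory receptor gene Olfr56 (808 bp) shared its peak with Ifi47. Small GTPase genes were narrow in 3 of 95 cases, Rab40b (582 bp), Rhof (724 bp) and Rab27a (1033 bp), of which Rhof lay 1554 bp from a peak of 11880 bp.

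Lists of general cell functions had narrow shares of 0 to 5.77%, and for all but the cell cycle list the interval held the background. No gene was narrow among 81 marked cytosolic ribosomal protein genes (0%, upper limit of the interval 4.53%), 86 respiratory chain genes (4.28%), 37 aminoacyl-tRNA synthetase genes (9.41%) or 186 genes of cell cycle, replication and DNA repair (2.02%), and in the last alone the upper limit lay under the background of 3.78%. With a limit of 1500 bp the cell cycle list stood at 2.15%, under the share of all genes at that limit, which is given below. In 79 mitochondrial ribosomal protein genes 1 was narrow, Mrpl24 (1137 bp), in 108 splicing and RNA-binding genes 1, Rbm7 (945 bp), and in 55 cytoskeletal genes 1. Histone genes were narrow in 3 of 52 (5.77%), Hist1h2ab (335 bp), Hist1h4c (826 bp) and Hist1h3e (1109 bp), with recurring words of 22.0 to 24.2% at each. Ubiquitin and proteasome genes were narrow in 10 of 280 (3.57%), led by the ligase gene Trim12c (446 bp). After it came the F-box genes Fbxo41 (646 bp) and Fbxo43 (728 bp), the deubiquitinase gene Usp2 (753 bp) and the ligase gene Rnf128 (757 bp). Trim12c had 7 CpGs, no island and recurring words of 20.9%, and the other 4 had 40 to 58 CpGs.

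Less characterised genes formed lists of their own. Genes with Rik, Gm or clone names were narrow in 27 of 379 (7.12%, interval 4.94 to 10.2), led by 2310009B15Rik (404 bp), 1500011B03Rik (420 bp), Gm7173 (450 bp), 5430403G16Rik (457 bp) and Gm19684 (517 bp). Genes named only by a domain or family, such as Tmem, Fam or Ccdc, were narrow in 22 of 386 (5.70%, interval 3.79 to 8.48), led by Lrrc32 (489 bp), Ccdc69 (571 bp), Tmem177 (579 bp), Tmem220 (665 bp) and Fam228b (799 bp). The latter share was 2.85% with a limit of 1000 bp and 9.59% with 1500 bp, and that of Rik, Gm and clone names was 12.7% with 1500 bp. The share of all genes moved the same way with the limit, and each of these values lay above it at its own limit (given below). No narrow gene was found among 18 synaptic and 14 germline genes with a TSS peak, whose intervals reach 17.6% and 21.5%.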

How the data were processed

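H3K4me3 ChIP-seq of C127 cells (3 replicates) was analysed from the deposited list of consensus peaks. The authors aligned reads to mm10 with bowtie2, discarded reads without a unique position, removed duplicates with SAMtools, called peaks per replicate against matched control with MACS (q 0.01), kept those found in all replicates and merged peaks within 250 bp. The deposited columns hold positions in bp, with no score, and versions are not given in the sources used here. Depth is unknown and replicates could not be compared.

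TSSs came from GENCODE vM21 basic (41249 coding TSS positions, 21755 genes) and sequence from the RefSeq GRCm38.p6 assembly. The 4 peaks on scaffolds were left out. Where a peak reached several TSSs, the one with most transcripts was used. CpG islands were unions of passing 200-bp windows. Narrow and wider peaks were compared per chromosome by a two-sided permutation of the signs of the differences (100000 resamples over 20 chromosomes, Benjamini-Hochberg over 23 measures, threshold 0.05). The procedure was tested on simulated data. For the place of the TSS between the edges of its own peak, no p is printed.

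Named genes were the 10 narrowest, 3 on each side of the limit, 6 with most and 6 with fewest CpGs, up to 5 narrow genes per list (all where 8 or fewer), 6 with the widest other TSS peak, and 5 with the smallest and 5 with the largest relative TSS position. Others were chosen after their values were seen. A few genes picked by this rule are not reported here. The members, the 32 lists, the rule and the tests were chosen with earlier results of these data known. Alternatives changed the limits, windows, reference TSS and classes of promoter. Python 3.11.15, numpy 2.4.6, pandas 2.3.3, scipy 1.17.1, pysam 0.24.0 and matplotlib 3.10.9 were used.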

Additional observations from a re-analysis of the deposited data

How the results depend on the processing

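Over 23 tested measures, 282 values were computed under other settings, and 259 kept their direction and their side of the threshold. CpG count, CpG ratio, GC content, island share and length, the GC box, NRF1 and ETS words and principal transcripts kept both under every setting run. The differences in CpG count ran from -27 to -7. That range takes in windows of 100 and 500 bp on each side of the TSS, so its counts are not on 1 scale. The share with the downstream side longer and the relative position, counted among the 23, are descriptions. The cause of the changes listed next was not tested. With a limit of 1500 bp, the difference in another peak within 5 kb turned to -0.17 percentage points and that of the CRE word (TGACGTCA) to 0.0586, the first exon differed by -31 bp and passed, the YY1 word fell to -1.27 and did not pass, the narrow share of genes was 6.71% and the TSS was inside 90.1% of members. With a limit of 1000 bp the narrow share of genes was 2.47%. At the limit of 1200 bp, counting genes with any narrow TSS peak gave 4.20%. With the TSS inside the peak, the first exon differed by -31 bp and passed, the multi-copy share turned to -0.0108, the CRE word to 0.486, and the narrow share of genes was 3.37%. With TSSs within 1000 bp, another peak within 5 kb (6.11), the first exon (-33.5 bp), the repeat-masked percent (0.20) and the multi-copy share (1.49) passed, and the TSS was inside 75% of members. Relative position turned to 0.0102 against wider peaks of 1200 to 2400 bp, to 0.0267 with a single TSS position and to 0.00105 with the TSS nearest to the midpoint. The opposite-strand share no longer passed at -3.72 (1200 to 2400 bp) and -3.95 (single TSS position), where the multi-copy share was -0.0735. With the midpoint TSS the CRE word was at 0.327. Without genes with another TSS peak, another peak within 5 kb was at -0.0187 and the CRE word at 0.173. Without promoters that had a TSS on the other strand nearby, the multi-copy share was -0.0141 and the CRE word 0.0753. With island promoters alone the share at genes with another TSS peak was 3.35 and did not pass.

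No paired analysis was possible because the 3 replicates were deposited as 1 consensus list. For the same reason no replicate was left out, and without scores no stricter peak threshold was set. Depth is unknown, and how near a narrow peak stood to the calling limit was not tested.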

Other observations

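The share of coding TSS peaks that were narrow differed between chromosomes, with a mean of 4.73% ± 1.22 (SD, n = 20 chromosomes). It was highest on X, where 22 of 304 peaks were narrow (7.24%, 95% Wilson interval 4.83 to 10.7), followed by chromosome 13 (24 of 367, 6.54%) and chromosome 12 (20 of 321, 6.23%). It was lowest on chromosome 19 (9 of 353, 2.55%), chromosome 4 (18 of 630, 2.86%) and chromosome 2 (27 of 773, 3.49%). The autosomes had a median of 4.39%, and the interval of X reached down to 4.83%. No test was made of these shares.

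Narrow peaks without an island (93, median width 789 bp) had a median of 9 CpGs, the same as the 318 wider peaks without one, whose median width was 2778.5 bp. None of the 93 held the TATA box word, against 14 of the 318 (4.40%). In both classes without an island the YY1 word was not found.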
